A study of Mus musculus with 8 samples.

Results

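*Mgarp* and 6 genes of mitochondrial transport were examined in muscle of mice lacking *Grsf1*: the Miro genes *Rhot1* and *Rhot2*, the TRAK genes *Trak1* and *Trak2*, and the kinesin genes *Kif5b* and *Kif1b*. Their measurements are those of all array probes, other than control spots, whose accession is a mouse RefSeq transcript of these 7 genes, which gave all 7 genes of 22911 named on the array and 17 of its 56605 probes, 1 of *Mgarp* and 16 of the other 6 genes. *Mgarp* was chosen because it was higher in Grsf1cKO muscle on these same arrays, so its values are given as a description with no test. The other 6 genes were chosen by function, and the question was whether the rise of *Mgarp* was shared by the adaptors.

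RNA was taken from muscle of 3 Grsf1cKO and 3 WT male mice, all 17 months old, and measured on 8 Agilent 1-color arrays, since WT 1 and Grsf1cKO 1 each had a repeat array. In Grsf1cKO mice, exons IV and V of *Grsf1*, which encodes a mitochondrial RNA-binding protein, were flanked by LoxP sites and removed by Myf5Cre, after FLPo had removed the LacZ and Neo cassettes of the parent Grsf1tm1a allele. Myf5 drives Cre in the muscle lineage, so other cells in the tissue may keep the gene. Whether the WT mice carried Cre or floxed alleles is not given in the sources used here. The labels name the muscle as vastus intermedius and the methods as rectus femoris, both parts of the quadriceps.

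Mitochondria travel along microtubules on motor proteins. Miro proteins are GTPases in the outer mitochondrial membrane, TRAK proteins link them to the motors, and kinesins carry the load outward while dynein carries it back. MGARP is a glutamic acid-rich mitochondrial protein that is induced in low oxygen and has been described as a partner of Miro in neurons, where it affects the distribution of mitochondria, and it is also known from steroid-producing tissues. In muscle fibers most mitochondria lie in fixed rows between myofibrils or under the membrane, and transport is less studied than in neurons.

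All values are log2 signals after quantile normalization, and a difference is the Grsf1cKO mean minus the WT mean of 3 mice each. Signals of different probes depend on the probe and are not compared with each other. Calls follow the criteria in the study's text, here applied with limma: a false discovery rate below 0.2 (Benjamini-Hochberg), *p* below 0.01 before adjustment, and a change of more than 1.5-fold. The targeted gene followed the labels: *Grsf1* was at 12.15, 12.02 and 12.08 in Grsf1cKO 1 to 3 and at 14.30, 14.25 and 14.27 in WT 1 to 3. That is a log2 fold change of -2.19 (SE 0.0811, limma adjusted *p* = 0.00328), or 4.57-fold more in WT. With the replicate number as a block, which cannot change the fold change here, the limma adjusted *p* was 0.25, which misses the criteria. Of 38886 probes tested, 3 met the criteria (0.00771%). The repeat array of Grsf1cKO 1 stood apart, with 88.9% of spots well above background against 66.3% to 73.1% on the other arrays. Slide 1 held only WT arrays, those of WT 2 and WT 1 (first array), and slide 2 held the remaining 6.

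*Mgarp* (NM_026358) lies on the minus strand at chr3:51388412-51396547 (GRCm38.p6). Its log2 signal was 6.15, 6.67 and 5.88 in Grsf1cKO 1 to 3 and 2.25, 5.25 and 2.72 in WT 1 to 3. All 3 Grsf1cKO mice were above all 3 WT mice, but WT 2 stood close to Grsf1cKO 3, while WT 1 and WT 3 were far lower. Grsf1cKO mice averaged 6.24 ± 0.40 (SD, n = 3), and the average of the WT mice was 3.41 ± 1.62 (SD, n = 3), a log2 fold change of 2.83, or 7.1-fold. In a bulk sample, a change in the share of some cell type and a change in RNA per cell cannot be told apart.

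The *Mgarp* probe was dim. It was well above background, by the scanner software's own flag, on all 4 Grsf1cKO arrays but on only 1 of 4 WT arrays, that of WT 2. Before any correction, the median spot signal was 178.5 in Grsf1cKO 1 (155 on the repeat), 144 in Grsf1cKO 2 and 92.5 in Grsf1cKO 3, over local backgrounds of 28 to 37 scanner units. In WT muscle it was 58 in WT 1 (51 on the repeat), 86.5 in WT 2 and 50 in WT 3, over backgrounds of 30 to 37. The order of the genotypes was thus present in the raw signal, with Grsf1cKO 3 only slightly above WT 2. The 2 arrays of Grsf1cKO 1 gave 6.79 and 5.51 after normalization, and those of WT 1 gave 2.19 and 2.31.

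WT 1 and WT 3 were not well above background, and the size of the difference depended on how such dim signals were treated. It was 1.63 on the log2 scale when signals not well above background were raised to the lowest detected signal of their array, and 0.76 with the normexp background correction, where the Grsf1cKO mice (7.22, 7.399 and 7.001) still lay above the WT mice (6.24, 6.82 and 6.29). On slide 2 alone, which leaves out WT 2, it was 3.72. Without WT 2 it was 3.75 and without WT 1 2.25.

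**Figure D1:**
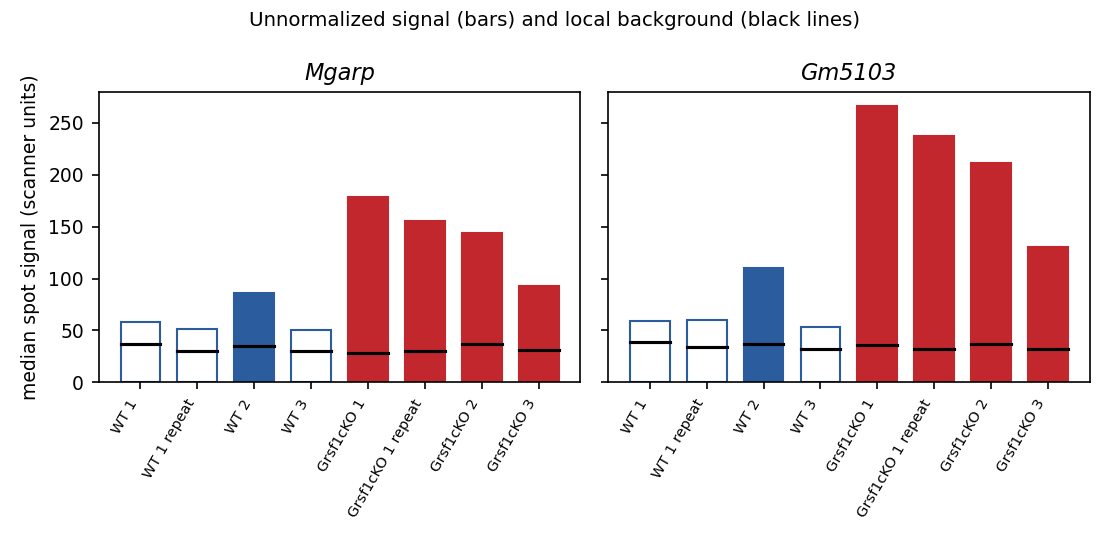
Median spot signal of the *Mgarp* and *Gm5103* probes on each of the 8 arrays, in scanner units before normalization (bars, filled where the probe was well above background and open where it was not), with the local background of the same spot (black lines). In both panels the Grsf1cKO bars and WT 2 are filled, and WT 1 and WT 3 lie close to background.

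The chromosomal neighborhood of *Mgarp* was examined next. Of the 3 RefSeq genes before it and the 3 after it by start position, 2 tRNA genes (*n-TPtgg7* and *n-TPagg5*) and a pseudogene (*Gm9442*) had no named probe, and *Gm5103*, *Ndufc1* and *Naa15* were measured. *Gm5103* (XR_867252) is a long noncoding RNA gene at chr3:51378046-51386324 on the plus strand, 2087 bases from *Mgarp*, with the 3' ends of the genes facing each other. Its log2 signal was 7.09, 7.31 and 6.52 in Grsf1cKO 1 to 3 and 2.60, 6.08 and 2.14 in WT 1 to 3. It thus shared with *Mgarp* both the absence of overlap and the high value of WT 2. The log2 fold change was 3.37 and did not meet the criteria. It is given as a description, since the probe passed the detection filter mainly through the Grsf1cKO mice and was not well above background in WT 1 and WT 3. The *Gm5103* probe was also dim, with detection in all 3 Grsf1cKO mice and in 1 WT mouse, WT 2, and raw medians of 130 to 266.5 on Grsf1cKO arrays against 53 to 110 on WT arrays. Its log2 fold change was 1.11 with normexp, 2.10 with dim signals raised to the lowest detected signal, and 4.60 without WT 2, where no WT mouse was left in which the probe was detected.

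The coding genes on the other side of *Mgarp* showed small differences. *Naa15*, a subunit of an N-terminal acetyltransferase, was at 11.90, 11.87 and 11.67 in Grsf1cKO mice and at 11.50, 11.64 and 11.40 in WT mice. The groups did not overlap, with WT 2 just under Grsf1cKO 3, but the difference was only 0.30 (95% confidence interval 0.03 to 0.58, limma unadjusted *p* = 0.0364, adjusted *p* = 0.996). *Ndufc1*, which lies 8931 bases from *Mgarp* and encodes a subunit of respiratory complex I, differed by -0.01 (95% confidence interval -0.21 to 0.19).

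Because *Mgarp* and *Gm5103* had like profiles, the 250 bases before the start of each are shown from RefSeq (GRCm38.p6), 5' to 3' on the strand of the gene. Capitals mark the letters ACGTG, a form of the core of the element bound by hypoxia-inducible factors, or CACGT, the same letters on the other strand. They also occur inside the E-box CACGTG. Other forms of the core were not searched.
*Mgarp* (chr3:51396548-51396797, minus strand): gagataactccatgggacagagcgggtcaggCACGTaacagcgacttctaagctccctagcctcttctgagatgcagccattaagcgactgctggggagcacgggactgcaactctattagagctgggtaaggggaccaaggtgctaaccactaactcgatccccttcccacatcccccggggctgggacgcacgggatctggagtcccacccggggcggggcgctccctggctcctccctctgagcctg
*Gm5103* (chr3:51377796-51378045, plus strand): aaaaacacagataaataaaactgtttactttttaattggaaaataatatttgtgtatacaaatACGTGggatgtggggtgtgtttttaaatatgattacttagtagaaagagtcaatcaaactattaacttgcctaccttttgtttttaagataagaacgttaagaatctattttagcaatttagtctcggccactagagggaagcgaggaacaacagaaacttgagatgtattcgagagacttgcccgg
Each window held the motif 1 time, 219 bases before the start of *Mgarp* and 187 bases before that of *Gm5103*. Among all 32851 promoter windows of this length, 5444 (16.6%) held it on either strand. Of the adaptor and motor genes, *Rhot1*, *Rhot2*, *Trak2* and *Kif1b* held none and *Trak1* held 1 in 1 of its 4 windows. *Kif5b* had no promoter window in the sources used here and was not examined. The windows of *Naa15* and *Ndufc1* held none. The windows differ in base composition, with 61.6% G and C for *Mgarp* and 32.8% for *Gm5103*. A match describes letters only, and binding was not measured.

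None of the Miro, TRAK and kinesin probes passed the test for a change. Each of the 16 was detected on every one of the 8 arrays, unlike the *Mgarp* probe. Of the 16, 0 met the criteria, against 0.00771% of all probes tested (0.525% without the false discovery rate), and 0 had an unadjusted limma *p* under 0.05, against 4.25% of all probes. Their log2 fold changes ran from -0.16 to 0.13 with a median of -0.023, beside a median of -0.026 over all probes, and 6 of 16 were above 0, against 42.5% of all probes. The highest upper bound of a 95% confidence interval among the 16 was 0.45, a 1.36-fold rise, and for the brightest probe of each gene it was 0.32, a 1.25-fold rise. The lowest lower bound among the 16 was -0.52. Of all probes tested, 64.1% had an absolute log2 fold change no larger than that of the most different of the 16.

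**Figure D2:**
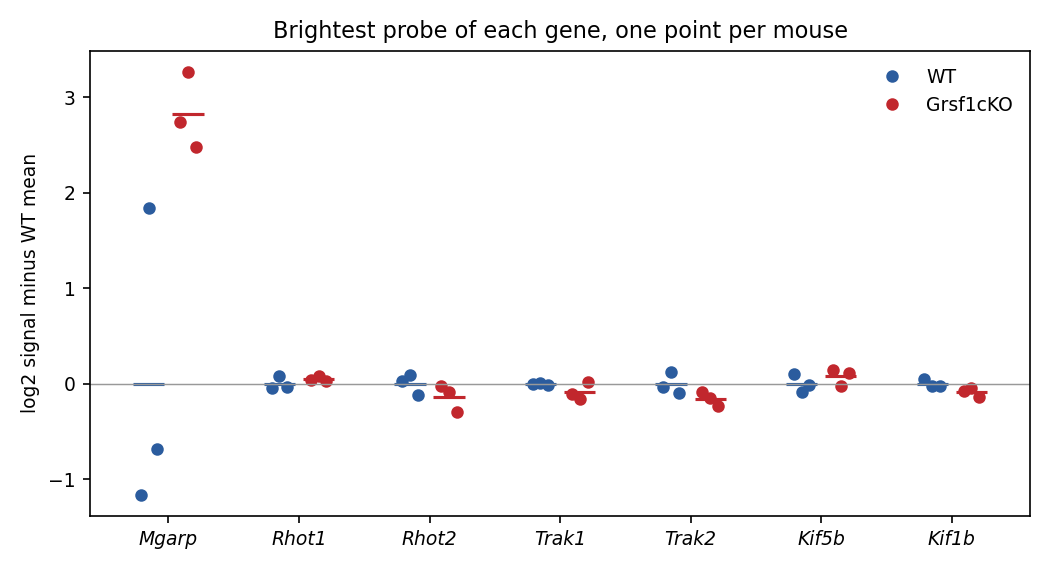
Log2 signal minus the WT mean for the brightest probe of each gene (y axis), with 1 point per mouse and a line at the mean of each genotype (n = 3). The *Mgarp* points spread over more than 4 units on this scale, and those of the Miro, TRAK and kinesin genes stay near 0.

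*Rhot1* and *Rhot2* encode Miro1 and Miro2, which sense calcium and anchor the motor complex to the outer membrane. The brightest *Rhot1* probe (NM_001163355, gene at chr11:80208610-80267907) gave 13.59, 13.64 and 13.58 in Grsf1cKO mice and 13.51, 13.63 and 13.52 in WT mice. The groups overlapped, since WT 2 lay above Grsf1cKO 1 and Grsf1cKO 3. The difference was 0.05 (SE 0.0828, 95% confidence interval -0.15 to 0.25, limma adjusted *p* = 0.997). The other *Rhot1* probe (NM_021536) differed by -0.02 (-0.27 to 0.23). *Rhot2* (NM_145999, gene at chr17:25838457-25844525) gave 14.78, 14.72 and 14.51 in Grsf1cKO mice and 14.83, 14.89 and 14.68 in WT mice with its brightest probe. Grsf1cKO 3 was lowest and WT 2 highest, and the groups overlapped. The difference was -0.13 (SE 0.112, 95% confidence interval -0.41 to 0.14, limma adjusted *p* = 0.996), and the other 2 probes gave -0.03 and -0.01.

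TRAK1 and TRAK2 are the adaptors that join Miro to kinesin and dynein. The brightest *Trak1* probe (NM_175114, gene at chr9:121297502-121474919) gave 12.76, 12.70 and 12.88 in Grsf1cKO mice and 12.87, 12.87 and 12.86 in WT mice. The WT mice were nearly equal and lay within the Grsf1cKO range. The difference was -0.08 (SE 0.0856, 95% confidence interval -0.29 to 0.13, limma adjusted *p* = 0.996). The dimmer *Trak1* probe gave a difference of the opposite sign, 0.08 (-0.25 to 0.41). *Trak2* (NM_172406, gene at chr1:58900449-58974345) gave 12.68, 12.62 and 12.53 in Grsf1cKO mice and 12.73, 12.89 and 12.67 in WT mice. WT 3 lay just below Grsf1cKO 1, and the other WT mice were above all Grsf1cKO mice. At -0.16 (SE 0.0976, 95% confidence interval -0.40 to 0.08, limma adjusted *p* = 0.996) this was the lowest difference of the 16 probes.

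KIF5B is a heavy chain of conventional kinesin, which TRAK proteins bind, and KIF1B is a kinesin with an isoform that carries mitochondria. The brightest *Kif5b* probe (NM_008448, gene at chr18:6201005-6241524) gave 15.41, 15.23 and 15.38 in Grsf1cKO mice and 15.36, 15.17 and 15.25 in WT mice. Mouse 2 was lowest in both genotypes, and the groups overlapped. The difference was 0.08 (SE 0.0968, 95% confidence interval -0.16 to 0.32, limma adjusted *p* = 0.996), and the other 3 probes ran from -0.07 to 0.09. The brightest *Kif1b* probe (NM_008441, gene at chr4:149176319-149307773) gave 15.30, 15.33 and 15.24 in Grsf1cKO mice and 15.42, 15.35 and 15.35 in WT mice. Here all Grsf1cKO mice were below all WT mice, by as little as 0.02 between the nearest. The difference was -0.09 (SE 0.0799, 95% confidence interval -0.28 to 0.11, limma adjusted *p* = 0.996).

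Another *Kif1b* probe (NM_001290995) separated the genotypes in the opposite direction, with 12.135, 12.058 and 12.120 in Grsf1cKO mice and 12.003, 11.946 and 11.980 in WT mice. Its difference was 0.13 (95% confidence interval -0.06 to 0.32, limma adjusted *p* = 0.996), the highest of the 16. The remaining *Kif1b* probes gave -0.03 and 0.02. These 2 of the 16 probes were the ones whose genotypes did not overlap, against 9.35% of all probes in either direction and 3.08% with Grsf1cKO higher, and each had an exact permutation *p* of 0.1 (2-sided), the smallest that 3 mice against 3 allow. Probes of different transcripts of a gene can read different isoforms, and where the probes lie in the transcripts was not examined here. Between the 2 arrays of a mouse, the 16 probes differed by up to 0.10 in WT 1 and 0.14 in Grsf1cKO 1, which is about the size of the differences between genotypes.

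**Figure D3:**
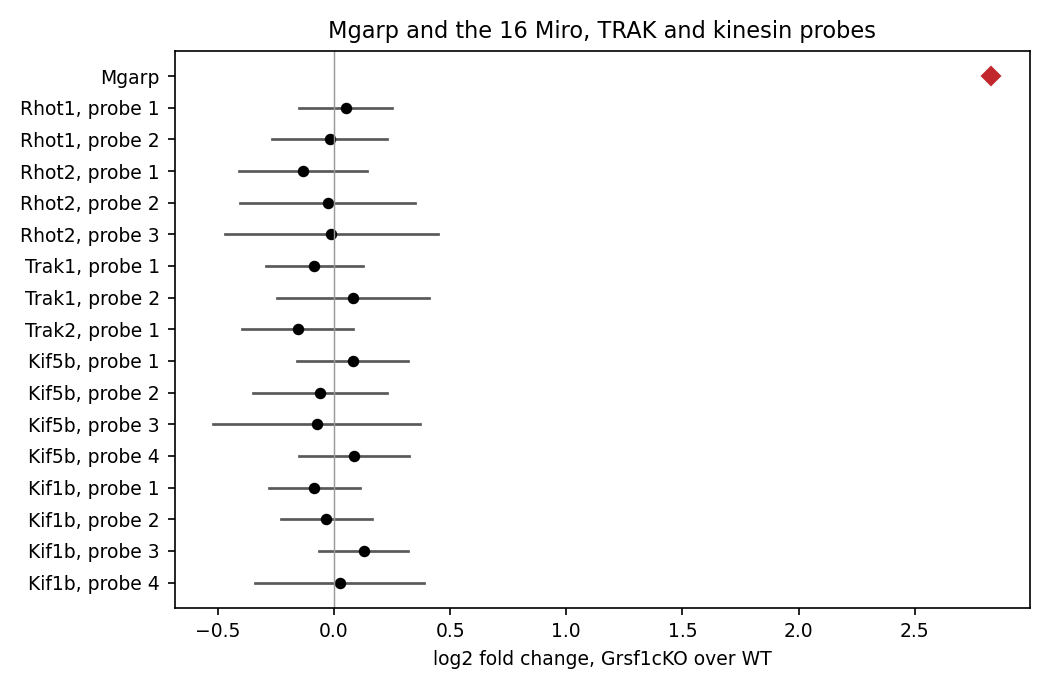
Log2 fold change of Grsf1cKO over WT (x axis) for *Mgarp* (diamond, no interval given) and for each of the 16 Miro, TRAK and kinesin probes (points, with 95% confidence intervals from limma over 6 mice), numbered within a gene from brightest to dimmest. Each of the 16 intervals includes 0, and their highest bound is 0.45. The *Mgarp* point is a description, since that gene was chosen for its difference on these arrays and its probe was not well above background in WT 1 and WT 3.

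The rest of the transport machinery was described with a list of 45 further genes, all detected in all 6 mice. With limma, 0 met the criteria (0.00771% of all probes), 0 were higher and 0 lower at an unadjusted *p* under 0.05 (1.29% and 2.96% of all probes), and the median log2 fold change was -0.017. Among 7 kinesin light chains and other kinesins the median was 0.021, from *Kif5c*, a neuronal heavy chain, at -0.19 to *Klc1*, a light chain, at 0.14. Among 18 dynein and dynactin subunits it was -0.011, from the intermediate chain *Dync1i1* at -0.28 to the heavy chain *Dync1h1* at 0.12.

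Among 15 anchors and partners of Miro or TRAK the median was -0.049. The lowest was *Snph* (-0.53), which encodes syntaphilin, a protein that anchors mitochondria to microtubules in axons. Its values of 8.60, 8.06 and 8.81 in Grsf1cKO mice and 9.33, 8.05 and 9.68 in WT mice overlapped, with WT 2 the lowest of all. The highest was *Fez1* (0.28), a kinesin adaptor, for which WT 3 stood alone at 9.06 against 10.58 to 11.05 in the other mice. *Mapk8ip3*, a kinesin and dynein adaptor, was the 1 gene of the 45 with no overlap between genotypes, against 9.35% of all probes, with 12.86, 12.85 and 12.87 in Grsf1cKO mice and 12.76, 12.70 and 12.75 in WT mice. That is a difference of 0.12 (95% confidence interval -0.07 to 0.31, limma adjusted *p* = 0.996).

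Among 5 genes of Miro turnover and mitochondrial fusion the median was -0.049, and the lowest was *Mfn2* (-0.10), a fusion GTPase that binds Miro. *Mfn2* was at 15.21, 15.11 and 15.08 in Grsf1cKO mice and at 15.39, 15.21 and 15.10 in WT mice, so the groups overlapped, and the 95% confidence interval was -0.36 to 0.16.

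*Mgarp* is known as a hypoxia-inducible gene, so 22 other genes induced by hypoxia and 7 factors of oxygen sensing were described in the same way. All were detected in all 6 mice. Of the 22, limma called 0 by the criteria, against 0.00771% of all probes. At an unadjusted limma *p* under 0.05, 0 were higher and 0 lower, against 1.29% and 2.96% of all probes. The median log2 fold change of the 22 was -0.039, and 8 were above 0, against 42.5% of all probes. In 4 of the 22 the genotypes did not overlap, and all 4 were lower in Grsf1cKO. They were *Egln1* (-0.19) and *P4ha2* (-0.13), both prolyl hydroxylases, *Mxi1* (-0.12), a MYC antagonist, and *Higd1a* (-0.07), a mitochondrial inner membrane protein. The interval of each of the 4 included 0. Of all probes, 9.35% did not overlap in either direction, and 3.08% did not overlap with Grsf1cKO higher. The lowest value was that of *Vegfa* (-0.34, 95% confidence interval -0.72 to 0.04), the vascular growth factor.

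The highest was *Ddit4* (0.59, 95% confidence interval -0.41 to 1.58), a stress-induced inhibitor of mTORC1. Grsf1cKO 2 stood alone, at 14.28 against 12.54 to 12.85 in the other 5 mice. Of the 7 oxygen-sensing factors, the highest was *Hif1an* (0.09) and the lowest *Egln2* (-0.12). *Egln2* was the 1 of the 7 whose genotypes did not overlap, against 9.35% of all probes in either direction. The transcription factors themselves differed by -0.01 for *Hif1a* (95% confidence interval -0.24 to 0.22) and -0.07 for *Epas1* (-0.37 to 0.22). The median of the 7 was -0.073. None of the 7 had an unadjusted limma *p* under 0.05, against 4.25% of all probes.

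The genes whose profiles over the 6 mice were closest to that of *Mgarp* were taken from 24829 named probes, by the root mean square difference of log2 signals after subtracting each probe's mean over the mice. *Gm5103*, its neighbor, was the closest, at 0.50, although neither probe was well above background in WT 1 and WT 3, and it ranked 6 with normexp, 11 without WT 1, and 2 without Grsf1cKO 2 or with profiles scaled to an SD of 1. Then came *Klhl31* (0.70), a kelch protein of striated muscle, *E030030I06Rik* (0.83), *Gm36543* (0.92) and *Csrp3* (1.01), which encodes muscle LIM protein. The 16 Miro, TRAK and kinesin probes were at 1.62 to 1.83. Profiles were not scaled here, so a probe that hardly varies lies at about the spread of *Mgarp* itself. These distances therefore show only that the 16 probes varied little. This is a description of 6 mice, and the mice are those in which *Mgarp* was chosen.

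Having been picked for their likeness to *Mgarp*, these profiles share with it a low value in WT 1 and WT 3 and a high value in WT 2. *Klhl31* was at 15.55, 16.35 and 15.43 in Grsf1cKO mice and at 13.15, 16.18 and 13.69 in WT mice. Its genotypes overlapped, with WT 2 above Grsf1cKO 1 and Grsf1cKO 3, and the difference was 1.44. This probe was well above background in all 6 mice. *Csrp3* was at 13.85, 13.72 and 14.30 in Grsf1cKO mice and at 12.01, 13.61 and 12.54 in WT mice. Its genotypes did not overlap, with WT 2 just below Grsf1cKO 2, and the difference was 1.24. Because these genes were picked for a profile like that of *Mgarp*, no test is given for them. In *E030030I06Rik* (difference 1.29) and *Gm36543* (1.58) the genotypes overlapped and WT 2 lay among the Grsf1cKO mice or above them. The *Gm36543* probe was detected in 3 Grsf1cKO mice and only 1 WT mouse, so the size of its difference rests on WT signals not well above background.

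**Figure D4:**
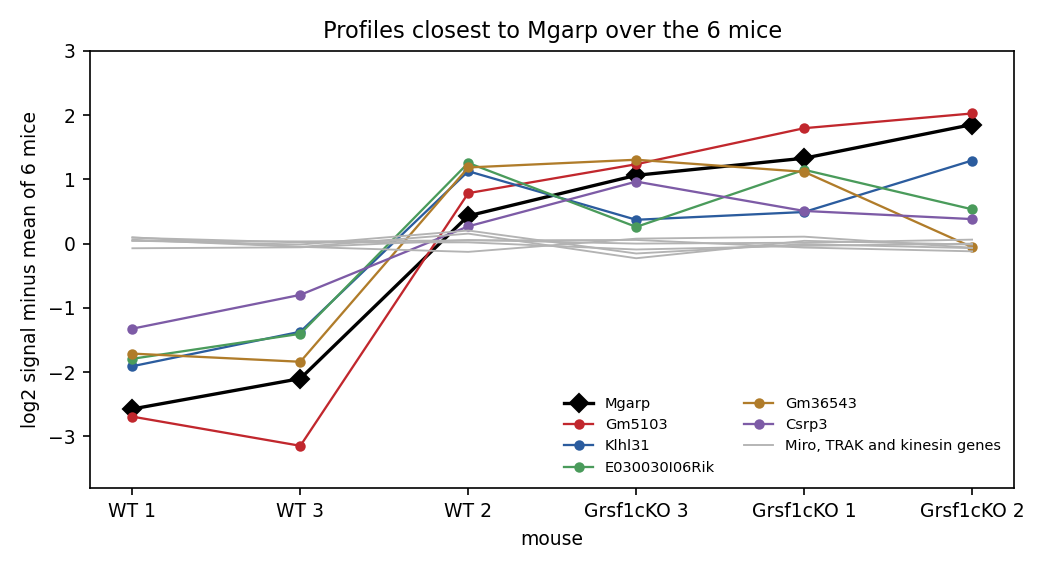
Log2 signal minus the mean of the 6 mice (y axis) for *Mgarp*, the 5 closest named probes and the brightest probes of the Miro, TRAK and kinesin genes (gray), with mice on the x axis ordered by their *Mgarp* value and lines drawn only to follow a gene. WT 1 and WT 3 are low and WT 2 is high in *Mgarp* and its 5 closest profiles, and the gray lines stay near 0.

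Markers of muscle and of other cells were compared as a check of the tissue. All 10 skeletal muscle markers were detected in all 6 mice, with a median log2 fold change of 0.014. The lowest was *Myh7* (-0.59), the slow myosin heavy chain, at 11.35, 9.46 and 9.39 in Grsf1cKO mice and 9.27, 11.38 and 11.33 in WT mice. The highest was the fast myosin *Myh2* (0.19). *Myh7* varied between mice within both genotypes, and Grsf1cKO 1, WT 2 and WT 3 were its high mice. Its part in the *Mgarp* values was not tested.

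Steroid-producing cells are a known source of *Mgarp*. Of their 5 markers, 0 were higher and 1 lower at an unadjusted limma *p* under 0.05 (1.29% and 2.96% of all probes), and their median was -0.06. The lower one was *Hsd3b1*, a steroid dehydrogenase, at -0.88 (unadjusted *p* = 0.00648, limma adjusted *p* = 0.996), a dim probe detected in 3 WT and 2 Grsf1cKO mice, and the highest was *Cyp17a1* (0.10). The summed level of this list, as the mean log2 signal relative to the WT mean, ran from -0.46 to -0.03 in Grsf1cKO mice and from -0.36 to 0.22 in WT mice.

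Markers of 7 other cell types had no gene with an unadjusted limma *p* under 0.05, against 4.25% of all probes. Of 10 Schwann cell and nerve markers 9 were tested, with a median of 0.05 (*Prx* 0.19, *Nefm* -0.50), and *Nefl*, an axonal neurofilament, was detected in no mouse. The medians were -0.15 for 6 adipocyte genes (*Adipoq* 0.08, *Cfd* -0.71), 0.14 for 6 macrophage genes (*Cd68* 0.66, *Itgam* -0.13), and 0.21 for 5 fibroblast genes (*Col3a1* 0.36, *Pdgfra* 0.02). They were -0.09 for 5 endothelial genes (*Pecam1* 0.08, *Kdr* -0.12), -0.04 for 4 smooth muscle genes (*Acta2* 0.14, *Myh11* -0.13) and -0.17 for 4 erythroid genes (*Hba-a1* -0.02). The fibroblast level ran from 0.06 to 0.41 in Grsf1cKO mice and from -0.13 to 0.22 in WT mice. All 5 fibroblast genes had a positive difference, against 42.5% of all probes. The adipocyte level ran from -0.50 to 0.20 in Grsf1cKO mice and from -0.76 to 0.41 in WT mice. The macrophage level ran from -0.09 to 0.79 in Grsf1cKO mice and from -0.11 to 0.16 in WT mice, and for *Cd68* Grsf1cKO 3 stood apart, at 13.30 against 11.57 to 11.96 in the other 5 mice. The part of these cell types in the *Mgarp* values was not tested.

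**Figure D5:**
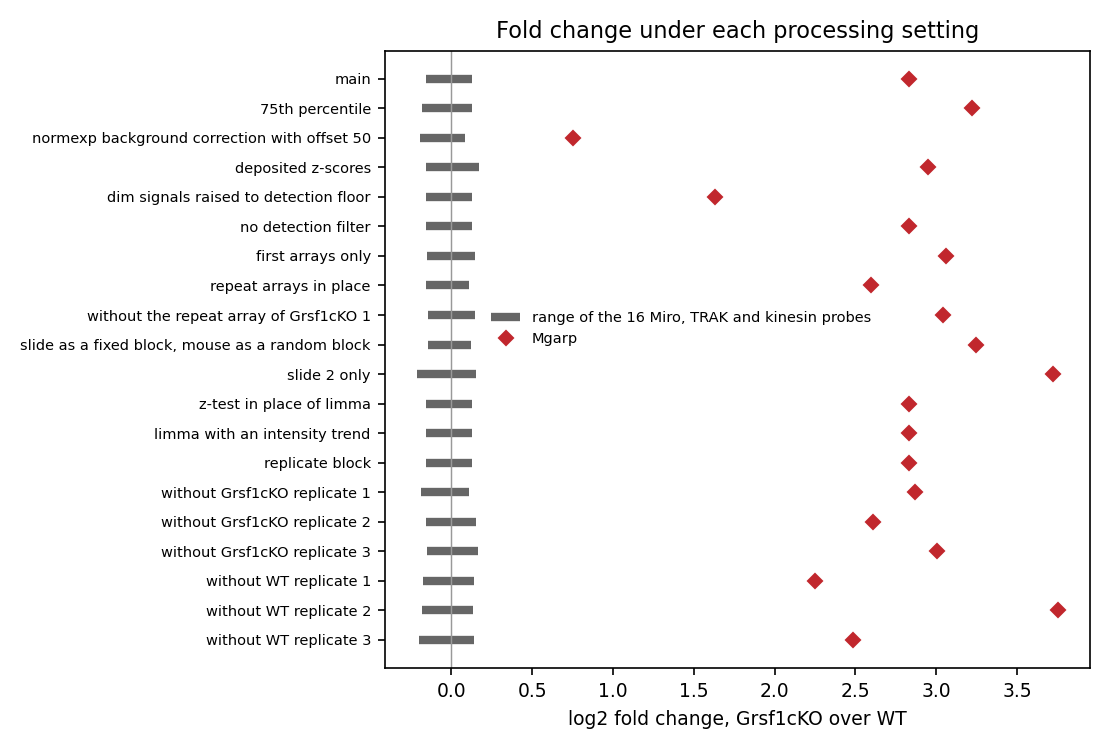
Log2 fold change of Grsf1cKO over WT (x axis) under each processing setting (y axis), for *Mgarp* (diamonds) and as the range over the 16 Miro, TRAK and kinesin probes (bars). *Mgarp* lies between 0.76 and 3.75 and the bars stay between -0.21 and 0.17.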

How the data were processed

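RNA of 6 mice was measured on 8 arrays. The deposited array files hold linear spot intensity from Feature Extraction 12.0.3.1, with that software's flag for signals well above background among other columns. A second deposited table holds a score per spot, the *z*-score of its log2 processed signal within the array. The methods state that the authors quantile normalized intensities and applied a *z*-test to log2 *z*-scores.

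Here the background-corrected processed signal was used. Control spots were dropped, and 825 outlier spots over the 8 arrays were set to missing. Log2 signals were quantile normalized across arrays, then averaged per probe and per mouse. No spot was saturated. Detection on all arrays of at least 3 of 6 mice, and values in at least 2 mice per genotype, were required. Probes that passed were tested with limma 3.58.1 (R 4.3.3) on genotype alone, with Benjamini-Hochberg adjustment over all 38886 probes tested. The replicate is the mouse. Single values were also compared by exact 2-sided permutation. Precision is limited by the number of mice, 3 per genotype, and the repeat arrays add no replicates. For a gene with several probes the brightest was used first. Symbols come from a RefSeq table of GRCm38.p6 by accession (32994 probes), and the array design is annotated on another build, so positions are those of the genes and not of the probes.

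The genes and the lists of 129 genes were chosen with earlier results of these data known. Named are all members, *Grsf1*, the 3 genes on each side of *Mgarp*, the 5 closest profiles, and from each list the highest and the lowest gene and those with an unadjusted *p* under 0.05 and no overlap, apart from 2 list genes that are not reported here. *Mapk8ip3*, *Egln1*, *P4ha2*, *Mxi1*, *Higd1a*, *Hif1a* and *Epas1* were named after their values were seen. The alternative *z*-test divided the same log2 differences by their standard error and took a normal *p*, under the same criteria. It left out the *z*-ratio and ANOVA filters of the methods, and their filter on average *z*-normalized expression. Alternatives covered normalization, background correction, deposited *z*-scores, dim signals, the detection filter, repeat arrays, slide, test, replicate block, the probe of a gene and each mouse left out. The steps were tested on simulated data with known changes.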

Additional observations from a re-analysis of the deposited data

How the results depend on the processing

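The count of Miro, TRAK and kinesin probes past the criteria stayed at 0 of 16 in all 20 alternatives. Apart from the *z*-test, these called only 0.00257% to 0.0105% of all probes, so a count of 0 among 16 says little. A *z*-test in place of limma called 379 of all probes (0.975%). It had 3 of the 16 at an unadjusted *p* under 0.05, where it had 10.8% of all probes. The log2 fold change of *Mgarp*, whose direction was fixed by how it was chosen, moved to 0.756 with normexp and to 1.632 with dim signals raised to the detection floor, and ran from 2.248 to 3.751 with each mouse left out. It gave no value when detection in all 6 mice was required. *Kif1b* was 0.008 with the mean of its probes, a reversed sign. *Ndufc1* turned positive with the deposited *z*-scores (0.107), and lay between -0.032 and 0.026 with each mouse left out, above 0 without Grsf1cKO 3 (0.026) and without WT 1 (0.009). *Gm5103* fell within the criteria with the *z*-test (3.369) and without WT 2 (4.604), but no call is read from this, because the probe was not well above background in WT 1 and WT 3 and passed the detection filter mainly through the Grsf1cKO mice. Its rank among the profiles closest to *Mgarp*, an alternative chosen after seeing the data, fell from 1 to 6 with normexp, to 11 without WT 1, to 2 without Grsf1cKO 2 and to 2 with profiles scaled to an SD of 1. The median of the 45 other transport genes ran from -0.034 to 0.018. The causes were not tested.

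Whether same-numbered mice of the 2 genotypes pair was not settled. Their deviations correlated at 0.232, 0.097 and 0.104, and different-numbered mice were not compared. An unadjusted limma *p* under 0.05 was found for 6.2% of probes with the replicate number as a block, against 4.25% without it. The numbers are taken only as names. With this block, 1 of 38886 probes was called in place of 3, and 0 of the 16. Each number holds 1 mouse of each genotype, so the block cannot change a difference of means, and *Mgarp* was again at 2.83. *Grsf1* was likewise at -2.192, with a limma adjusted *p* of 0.25, so it no longer met the criteria. Without the block, *Grsf1* ran from -2.225 to -2.161 with each mouse left out.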
